A study of Mus musculus with 2 samples.

Results

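The 10 genes described here are the glucocorticoid receptor Nr3c1, its close relative Nr3c2, the enzyme Hsd11b1, the receptor's immunophilin partners Fkbp5 and Fkbp4, and the receptor's induced genes Tsc22d3, Zbtb16, Sgk1, Map3k6 and Serpina3n. They were taken by name from the 16174 genes listed in either of 2 RNA sequencing libraries of mouse brown adipose tissue, and all 10 were listed in both. The members were selected on the FPKM and count differences between these same libraries together with their known roles, so their counts and directions are a description and carry no test. The control library came from D3Bfl/fl mice and the knockout library from D3Bfl/fl-UCP1-Cre+/- mice. Both groups were on the C57BL/6 background, carried the floxed alleles and had been fed chow for 45 weeks, to an age of 45 weeks. The series title gives the sex as female, and D3B is read as Dnmt3b, a DNA methyltransferase, from knowledge of the study. The Ucp1 promoter directs Cre to thermogenic adipocytes, so stromal, vascular and immune cells of the tissue keep an intact allele. The control genotype names no Cre, so an effect of the transgene and of the deletion cannot be told apart. The labels do not say how many mice went into a library or at what time of day tissue was taken.

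Glucocorticoids are steroid hormones of the adrenal cortex whose blood level follows the time of day and rises with stress. They bind the glucocorticoid receptor, which is held in the cytosol by HSP90 and its co-chaperones, and the bound receptor moves to the nucleus and attaches to glucocorticoid response elements, palindromes with arms of the type AGAACA and TGTTCT. In fat, Hsd11b1 remakes active hormone from its inert keto form inside the cell, so the hormone level in the tissue need not follow that in blood. In brown fat, glucocorticoids are known to favour lipid storage and to lower thermogenic genes in rodents.

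There was 1 library per genotype, so no value below has a replicate check and no test between genotypes was possible. The control library held 9666528 expected counts and the knockout library 10068359. The libraries were run on different lanes, 2 for the control and 1 for the knockout, and lane and genotype cannot be told apart. Levels are given in FPKM, fragments per kilobase of transcript scaled to library size, and the range after each ratio of knockout to control is a 95% interval of counting error alone. A gene was tested when it reached 1 FPKM in either library. The call rule used the log2 of the knockout to control ratio after 1 FPKM was added to both values: a gene was called higher from 1 upwards and lower from -1 downwards, provided that the counting interval left out a ratio of 1. The targeted Dnmt3b was near the detection limit, with 15 counts in the control and 7 in the knockout library, so its transcript is a weak check of the labels. All 13 genes taken as brown adipocyte markers were listed in both libraries. Ucp1 was at 4987 FPKM (control) and 4271 FPKM (knockout), so the labelled tissue was present in both.

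Start-site sequences are shown first because the receptor acts on DNA. RefSeq windows from 250 bases before to 50 bases after a transcription start (assembly GRCm38.p6) were available for 8 of the 10 genes, in 15 windows. Nr3c1 and Zbtb16 had no window and were not searched. Each window was searched on both strands for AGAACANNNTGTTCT, the full palindrome, for GNACANNNTGTNC, a looser core that every full palindrome also contains, and for the single arm AGAACA, whose reverse complement is TGTTCT. The full palindrome was in 3 of all 32851 windows, 0.00913%, and 1 of these 3 belonged to Sgk1. The core was in 156 windows, 0.475% of all, and among the 10 genes it was found for Sgk1, Map3k6 and Serpina3n. The single arm was in 19% of all windows and in those of 3 of the 10 genes. No core was in the windows of Fkbp5, Tsc22d3, Hsd11b1, Fkbp4 or Nr3c2, which says only that these letters are not in those stretches.

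The 3 stretches with a core are printed from 250 bases before the start site, in lower case, with the bases that the motif specifies in capitals. The Sgk1 stretch is chr10:21993640-21993734 on the + strand and ends 156 bases before one of its 6 annotated starts. Its palindrome lies inside the transcribed region of longer Sgk1 transcripts in GENCODE M21, outside their exons. The Map3k6 stretch is chr4:133240568-133240669 and the Serpina3n stretch is chr12:104406458-104406645, both on the + strand, and GENCODE M21 has no transcript over either core.
Sgk1: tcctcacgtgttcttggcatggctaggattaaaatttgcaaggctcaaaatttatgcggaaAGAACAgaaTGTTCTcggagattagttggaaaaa
Map3k6: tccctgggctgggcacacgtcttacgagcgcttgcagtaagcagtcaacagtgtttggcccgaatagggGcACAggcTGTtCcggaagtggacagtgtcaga
Serpina3n: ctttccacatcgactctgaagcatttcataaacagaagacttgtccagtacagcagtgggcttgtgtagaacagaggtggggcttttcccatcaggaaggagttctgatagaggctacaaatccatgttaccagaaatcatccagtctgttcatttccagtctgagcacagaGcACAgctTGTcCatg

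The levels of the receptors come first. Nr3c1 (Entrez gene 14815), the glucocorticoid receptor, was at 18.94 FPKM (control) and 15.69 FPKM (knockout), from 1156 and 997 counts. Its ratio of 0.828 (0.761 to 0.903) lay below 1 by more than counting error and far from the 2-fold line. Nr3c2 (110784), the mineralocorticoid receptor, which binds the same hormone with higher affinity, was at 1.53 and 1.23 FPKM, from 60 and 50 counts. Its ratio of 0.804 had an interval from 0.539 to 1.19, so no difference was detectable at this depth. Per length, Nr3c1 exceeded Nr3c2 by a factor of 12.4 (9.55 to 16.3) in the control and 12.8 (9.6 to 17.3) in the knockout library, and these within-library ratios do not depend on scaling between libraries.

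Hsd11b1 (15483), the reductase that regenerates corticosterone, had the highest level of the 10 genes in the knockout library, and in the control it could not be told apart from Fkbp4 within counting error. It stood at 66.4 FPKM (control) and 110.12 FPKM (knockout), from 837 and 1445 counts, a ratio of 1.66 (1.52 to 1.81) that stayed below 2. H6pd, which supplies NADPH to this enzyme in the endoplasmic reticulum, was at 58.24 and 72.22 FPKM, which gives a ratio of 1.24 (1.18 to 1.31). Within a library, Hsd11b1 exceeded H6pd by a factor of 1.14 (1.05 to 1.23) in the control and 1.52 (1.43 to 1.62) in the knockout. Hsd11b2, the opposing enzyme that inactivates the hormone, was not listed in the control and had 6 counts in the knockout library. Of 16 named genes of steroid synthesis, transport and breakdown, 12 were listed and 5 were tested, and none met the rule in either direction. Cyp11b1 and Hsd3b1, enzymes of steroid synthesis, were listed in neither library, and Cyp11a1, the first step of that synthesis, had 4 and 1 counts. Mc2r, the receptor for the pituitary hormone that drives the adrenal cortex and which adipocytes also express, was at 2.66 and 3.77 FPKM with a ratio of 1.42 (0.933 to 2.17).

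**Figure D1:**
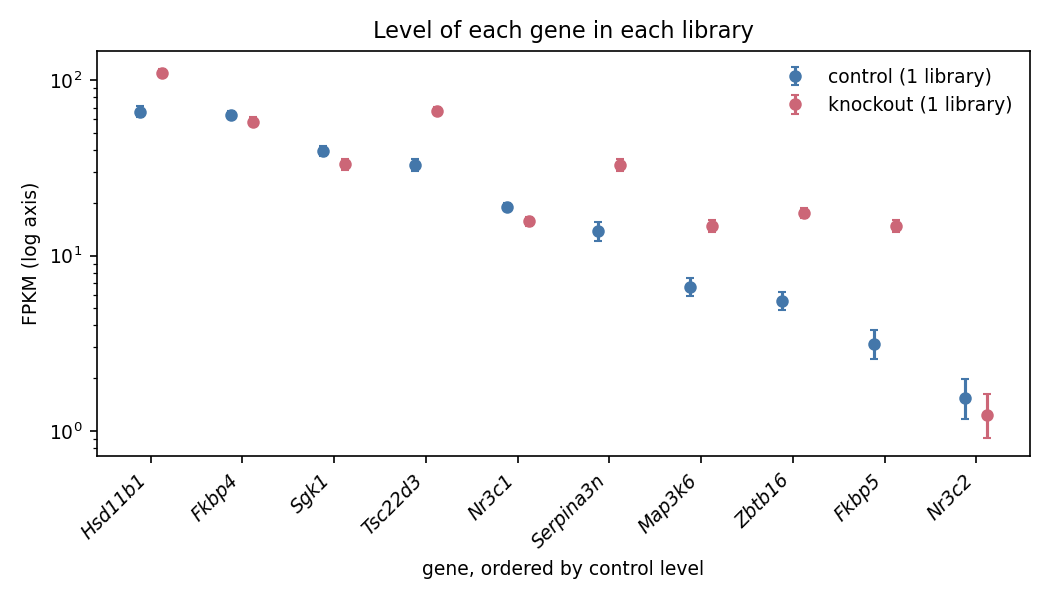
FPKM on a log axis for the 10 genes in the control and the knockout library, ordered by control level, with 95% counting intervals as bars. Fkbp5, Zbtb16, Map3k6, Serpina3n, Tsc22d3 and Hsd11b1 are higher in the knockout library, while the intervals of Nr3c2 and of Fkbp4 overlap between the libraries.

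Fkbp5 and Fkbp4 encode paired immunophilins that compete for HSP90 in the receptor complex: Fkbp5 lowers hormone affinity and is itself strongly induced by the receptor, and Fkbp4 aids transport to the nucleus. Fkbp5 (14229) had 116 counts in the control and 571 in the knockout library, which is 3.12 and 14.77 FPKM and a ratio of 4.73 (3.87 to 5.83). Its log2 ratio of 1.94 ranked 3 from the top among the 11746 tested genes. Fkbp4 (14228) was at 63.47 and 58.17 FPKM, from 1300 and 1240 counts, with a ratio of 0.916 (0.847 to 0.991). Per length, Fkbp4 therefore exceeded Fkbp5 by a factor of 20.3 (16.8 to 24.8) in the control and by 3.94 (3.56 to 4.36) in the knockout library. Of 15 named genes of the wider FKBP family, 12 were tested, Fkbp5 was the member called higher and none was called lower. Fkbp10, a collagen chaperone, had a ratio of 2.05 (1.43 to 2.97) and a log2 value of 0.75, under the line because its level was low. Fkbp2 had a ratio of 0.752 (0.67 to 0.844).

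Tsc22d3 (14605), known as Gilz, is an anti-inflammatory leucine zipper protein and a standard reporter of receptor activity. It was at 33.06 FPKM (control) and 67.2 FPKM (knockout), from 625 and 1325 counts, and its ratio of 2.03 (1.85 to 2.24) placed it just inside the 2-fold line with a log2 value of 1. Hsd11b1, at 0.72, was the nearest of the 10 genes outside it. The relatives Tsc22d1, Tsc22d2 and Tsc22d4 had ratios of 1.38 (1.26 to 1.52), 1.06 (0.891 to 1.26) and 0.988 (0.845 to 1.16). Tsc22d3 was thus the family member that met the rule, and its level relative to Tsc22d1 was 0.739 (0.664 to 0.823) in the control and 1.09 (1 to 1.18) in the knockout library.

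Zbtb16 (235320), the zinc finger protein PLZF, is strongly induced by glucocorticoid in several cell types. It was at 5.54 and 17.46 FPKM, from 272 and 892 counts, a ratio of 3.15 (2.75 to 3.62) that ranked 17 from the top. Map3k6 (53608), the stress kinase ASK2, was at 6.65 and 14.72 FPKM, from 276 and 636 counts, with a ratio of 2.21 (1.92 to 2.56). Its relatives Map3k5 (ASK1) and Map3k15 (ASK3) had ratios of 0.974 (0.856 to 1.11) and 1.06 (0.991 to 1.13). Map3k15, the most abundant of the family, exceeded Map3k6 per length by a factor of 5.9 (5.19 to 6.73) in the control library and 2.83 (2.58 to 3.1) in the other.

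Serpina3n (20716), a secreted inhibitor of serine proteases that is also an acute phase gene, was at 13.77 FPKM (control) and 33 FPKM (knockout), from 271 and 676 counts, a ratio of 2.4 (2.08 to 2.77). It lies in a cluster of near-identical genes, so its reads could in principle be divided among copies, but its expected counts were whole numbers in both libraries. Of the 11 named genes of the cluster, 7 were listed and 3 tested, and Serpina3c was called higher too, at 8.9 and 21.1 FPKM with a ratio of 2.37 (1.94 to 2.9). The level of Serpina3n relative to Serpina3c was 1.55 (1.26 to 1.91) in the control and 1.56 (1.37 to 1.79) in the knockout library, a nearly constant proportion. Serpina3k, with shared reads, had 17.61 and 11 counts and a ratio of 0.596 (0.251 to 1.31). Acute phase genes and the signalling genes behind them were tested as a list: none of 12 was called in either direction and the median log2 ratio was 0.30. Of the 12, 11 lay above 0, against 45.9% of all tested genes. Saa3, an acute phase protein, had a ratio of 1.83 (1.24 to 2.73) and Steap4, a metalloreductase induced by cytokines, 1.39 (1.3 to 1.5). The part of these signals in the Serpina3n value was not tested.

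Sgk1 (20393), a kinase that raises sodium transport and is a classical early target of both receptors, did not share the direction of the other induced genes. It was at 39.48 FPKM (control) and 33.17 FPKM (knockout), from 933 and 818 counts, with a ratio of 0.84 (0.764 to 0.924). Sgk1, whose window holds the full palindrome, thus had a ratio below 1, while Fkbp5, Tsc22d3, Zbtb16, Map3k6 and Serpina3n had ratios above 2. Relative to Sgk1, Tsc22d3 was at 0.837 (0.755 to 0.928) in the control and 2.03 (1.86 to 2.21) in the knockout library, so Sgk1 had the higher level in the control and Tsc22d3 in the knockout. In the same kinase family, Sgk2 was called lower, at 8.43 FPKM (control) and 2.09 FPKM (knockout) with 205 and 53 counts and a ratio of 0.248 (0.18 to 0.337). Sgk3 had a ratio of 1.01 (0.784 to 1.31).

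**Figure D2:**
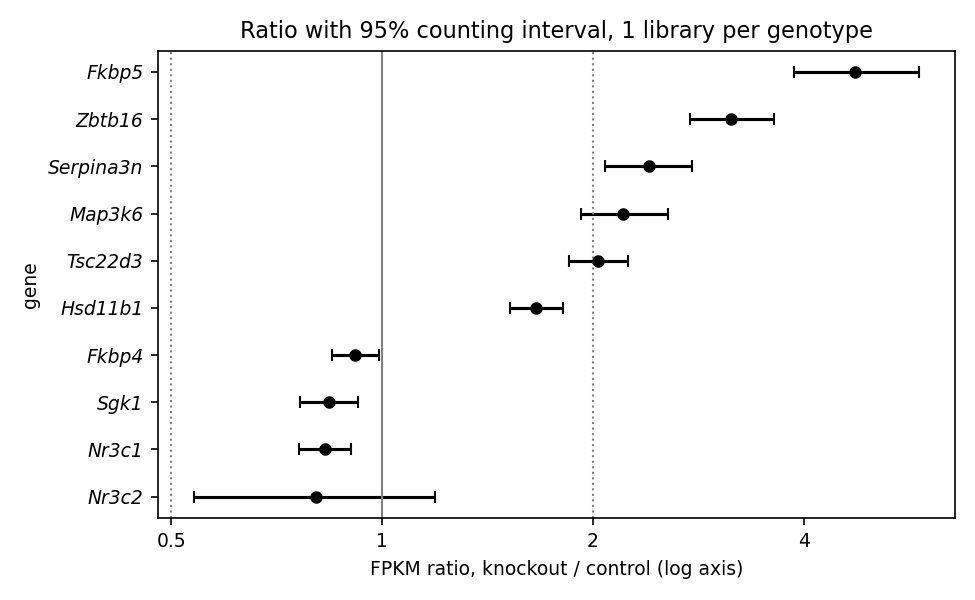
Ratio of knockout to control FPKM for the 10 genes on a log axis, with 95% counting intervals as bars, a solid line at 1 and dotted lines at 0.5 and 2. The 6 genes from Fkbp5 down to Hsd11b1 lie above 1, and Fkbp4, Sgk1, Nr3c1 and Nr3c2 lie below it.

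Counted together, 5 of the 10 genes met the rule in the higher direction: Fkbp5, Zbtb16, Serpina3n, Map3k6 and Tsc22d3. In the background, 0.902% of the 11746 tested genes were called higher and 0.673% lower. None of the 10 was called lower. The median log2 ratio of the set was 0.86 against -0.03 over all tested genes, and nothing is read from this gap because the values were known when the genes were chosen. The set fell into separate parts on this scale, with 6 genes at 0.72 or above and 4 between -0.26 and -0.12; over all tested genes 45.9% lay above 0 and 53.8% below. The lower part held both receptors, Fkbp4 and Sgk1. The order of levels also shifted: Fkbp5 was the ninth gene of 10 in the control, below Zbtb16, and in the knockout library Fkbp5, Map3k6 and Nr3c1 were at 14.77, 14.72 and 15.69 FPKM and could not be told apart within counting error. The same held for Sgk1 and Serpina3n in the knockout library, at 33.17 and 33 FPKM. Map3k6 and Zbtb16 stood at 6.65 and 5.54 FPKM in the control, with intervals of 5.89 to 7.48 and 4.9 to 6.24 that overlapped only in part.

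**Figure D3:**
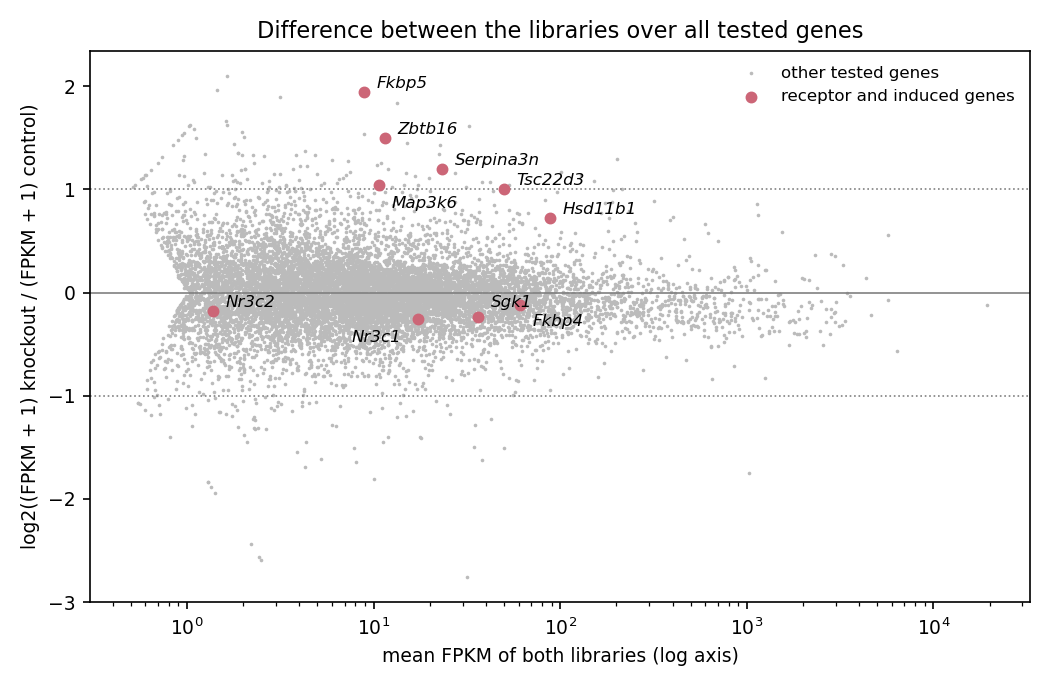
Mean FPKM of both libraries (log axis) against the log2 ratio of knockout to control with 1 FPKM added, for the 11746 tested genes in grey and the 10 genes in red; dotted lines mark 1 and -1. Fkbp5 at 1.94 and Zbtb16 at 1.5 stand at the upper edge of genes of similar level, and Nr3c1 at -0.26 lies within the bulk.

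Further genes known to be induced by glucocorticoids gave a mixed picture. Of 32 named genes outside the 10, 31 were listed and 28 tested. Of these, 20 lay above 0 and 8 below, that is 71.4% above 0 against 45.9% of all tested genes, and the median log2 ratio was 0.21. The list was drawn up with earlier results of these data known, so its shares are a description and carry no test. The rule called 1 of the 28 higher and none lower, and at 1.5-fold 6 were higher and 2 lower, against 4.35% and 3.41% of all tested genes. The called gene was Fam107a, an actin-binding protein induced by stress hormones, with 24 and 97 counts, 0.8 and 3.11 FPKM and a ratio of 3.89 (2.46 to 6.35). Mertk, a receptor for the uptake of dead cells, had a ratio of 2.57 (1.82 to 3.69) and the metallothionein Mt2 1.66 (1.5 to 1.82). In the other direction, Dusp1, a phosphatase that switches off MAP kinases and an early glucocorticoid target, was at 77.03 FPKM (control) and 41.89 FPKM (knockout), a ratio of 0.544 (0.498 to 0.593). Per1, a clock gene with a well known response element, had a ratio of 1.09 and a log2 value of 0.11, and Klf9, another direct target, 1.29 and 0.35; both were named after their values were seen. The 6 genes also include Cd163, with a ratio of 1.94 (1.5 to 2.51), and Agt, with 2.04 (1.24 to 3.42), both named after their values were seen. Mertk and Cd163 are macrophage genes, and macrophage markers were higher in the knockout library as given below. Agt is also on the list of white adipocyte markers given there. The part of these cell types in the list was not tested.

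Genes that glucocorticoids are known to repress differed in both directions. Of 22 named inflammatory and endocrine genes, 11 were tested, with 6 above 0 and 5 below, a median log2 ratio of 0.01 and no call in either direction. Mmp3, a matrix protease, had a ratio of 2.22 (1.65 to 3.03), and the chemokine Ccl2 1.59 (1.16 to 2.21). Cxcl2, a neutrophil chemokine, had 11 and 3 counts and a ratio of 0.264 (0.0469 to 0.992). Il6, a cytokine repressed by the receptor in many cells, was listed in neither library. Nos2, the inducible nitric oxide synthase, had 67 and 43 counts and a ratio of 0.617 (0.41 to 0.918). Vcam1, a vascular adhesion molecule, had a ratio of 1.41 (1.17 to 1.71), and both were named after their values were seen. The other 11 were below 1 FPKM in both libraries or not listed, so the median leaves them out. Of these, 3 named after their values were seen had fewer counts in the knockout library by more than counting error. Sele, an endothelial adhesion molecule, had 23 and 1 counts, the gelatinase Mmp9 23 and 5, and the cytokine Il11 10 in the control and none in the knockout.

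The machinery around the receptor was nearly level between the libraries. None of 16 HSP90 machine genes was called, their log2 ratios ran from -0.18 to 0.47 and the median was 0.02. Hsph1, a heat shock protein of the HSP110 class, had the largest ratio of these with 1.41 (1.25 to 1.6), and Stub1, a ubiquitin ligase that acts with HSP70 and HSP90, the smallest with 0.881 (0.799 to 0.971). None of 15 coactivators and corepressors was called either, with a median of -0.01. Nrip1, a corepressor that restrains thermogenic genes, had a ratio of 1.54 (1.19 to 2) and Hdac3, the deacetylase of the NCoR complex, 0.857 (0.768 to 0.957). Genes of the mineralocorticoid response outside the 10 had low levels or small differences: Edn1, the endothelin-1 gene, had a ratio of 1.64 (0.936 to 2.97). The epithelial sodium channel subunit Scnn1a had 19 counts in either library, and Scnn1b was listed in neither.

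**Figure D4:**
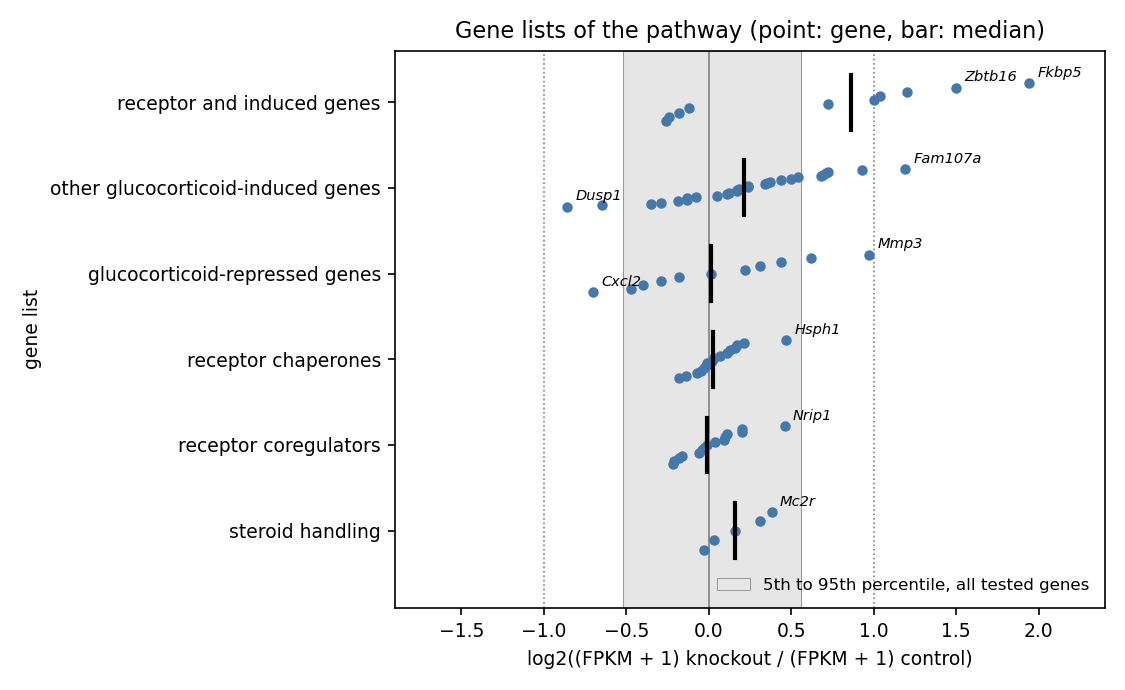
Log2 ratio of knockout to control with 1 FPKM added for each tested gene (points) of 6 lists, with the list median as a black bar, dotted lines at 1 and -1, and the range from the 5th to the 95th percentile of all tested genes (-0.52 to 0.56) in grey. The genes described here have a median of 0.86, the other induced genes 0.21, and those of the chaperones, coregulators and repressed genes lie near 0.

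The start-site sequence was then set beside the expression of all genes. This comparison is a description: Map3k6 and Serpina3n were chosen on these same expression values, and Fam107a comes from a list drawn up with earlier results known. Among the 9340 tested genes with a window, 83 or 0.889% were called higher and 49 or 0.525% lower. Of the 35 of these whose window holds the core, 5 were called higher, 14.3%, and none lower, and their median log2 ratio was 0.05. Without the 3 genes of the set the count was 3 of 32, or 9.38%. That count still holds Fam107a, and Serpina3c with the same site as Serpina3n, so the choice of genes still weighs on it. Mt1, on the same list as Fam107a, also has a core and was not called. Its ratio was 1.03 (0.973 to 1.09), and it was named after its value was seen. The single arm, with or without a core, was in the windows of 1369 tested genes, of which 1.31% were called higher and 0.584% lower. This group includes Tsc22d3, Serpina3n and Fam107a and overlaps the genes with a core. The 5 genes were Map3k6, Serpina3n, Serpina3c, Fam107a and Slc10a6, a transporter of sulphated steroids, which was named after its value was seen. Slc10a6 stood at 1.05 FPKM (control) and 4.12 FPKM (knockout), a ratio of 3.92 (2.42 to 6.68). The sites are printed here with those of Sgk1 for comparison, each as 15 bases of the gene's strand with the specified core bases in capitals.
Map3k6: gGcACAggcTGTtCc
Serpina3n: aGcACAgctTGTcCa
Serpina3c: aGcACAgctTGTcCa
Fam107a: tGgACAtggTGTtCt
Slc10a6: aGaACAcgaTGTgCc
Sgk1: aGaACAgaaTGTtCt
The Serpina3n and Serpina3c sites are the same 15 bases, at chr12:104406629-104406643 on the + strand and chr12:104153934-104153948 on the - strand, and these neighbouring copies are not independent examples. The Fam107a site is at chr14:8309884-8309898 and the Slc10a6 site at chr5:103629553-103629567, both on the - strand. A match is a stretch of letters and not a measured binding site.

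Markers of the cell types in brown fat differed between the libraries beside these genes. Bulk tissue cannot tell fewer cells of a type from less RNA per cell. All 10 macrophage markers lay above 0, with a median log2 ratio of 0.53, and none was called higher. At 1.5-fold 4 were higher, and the summed level was 403 FPKM (control) and 596 FPKM (knockout). Of 9 tested white adipocyte markers 8 lay above 0 and 5 were called higher, and the sum was 500 and 945 FPKM. Over all tested genes 45.9% lay above 0, 0.902% were called higher and 4.35% were higher at 1.5-fold. The 5 were Mest, Nnat, Dpt, Slc7a10 and Psat1. The positional gene Hoxc8 lay below 0, with a ratio of 0.886 (0.614 to 1.28), and Hoxc9 and Hoxc10 were listed in neither library. Psat1 and Hoxc8 were named after their values were seen. Fibroblast and preadipocyte markers lay above 0 in 9 of 10 cases, with sums of 403 and 532 FPKM. Endothelial markers lay below 0 in 6 of 7 cases, with sums of 216 and 146 FPKM, and Cldn5, a tight junction protein, had a ratio of 0.495 (0.444 to 0.552). Brown adipocyte markers lay below 0 in 11 of 13 cases, with a median of -0.22. Elovl3, the highest of them, had a ratio of 1.65 (1.46 to 1.87). The 13 include Pparg, Adipoq and Fabp4, which white adipocytes express too, with log2 ratios of -0.09, 0.02 and -0.12. All of these were named after their values were seen. Of the neutrophil markers 3 were tested and lay above 0, and S100a8, with 13 and 33 counts, was called higher. Of the lymphocyte markers 1 was tested, Ptprc, with a ratio of 2.41 (1.85 to 3.17). Blood cell markers were nearly level, with 1 of 4 tested genes above 0 and 3 below and sums of 7560 and 7410 FPKM, and skeletal muscle markers summed to 3.14 and 3.2 FPKM, with Ckm and Myh7 listed in neither library. The part of these cell types in the values of the 10 genes was not tested.

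**Figure D5:**
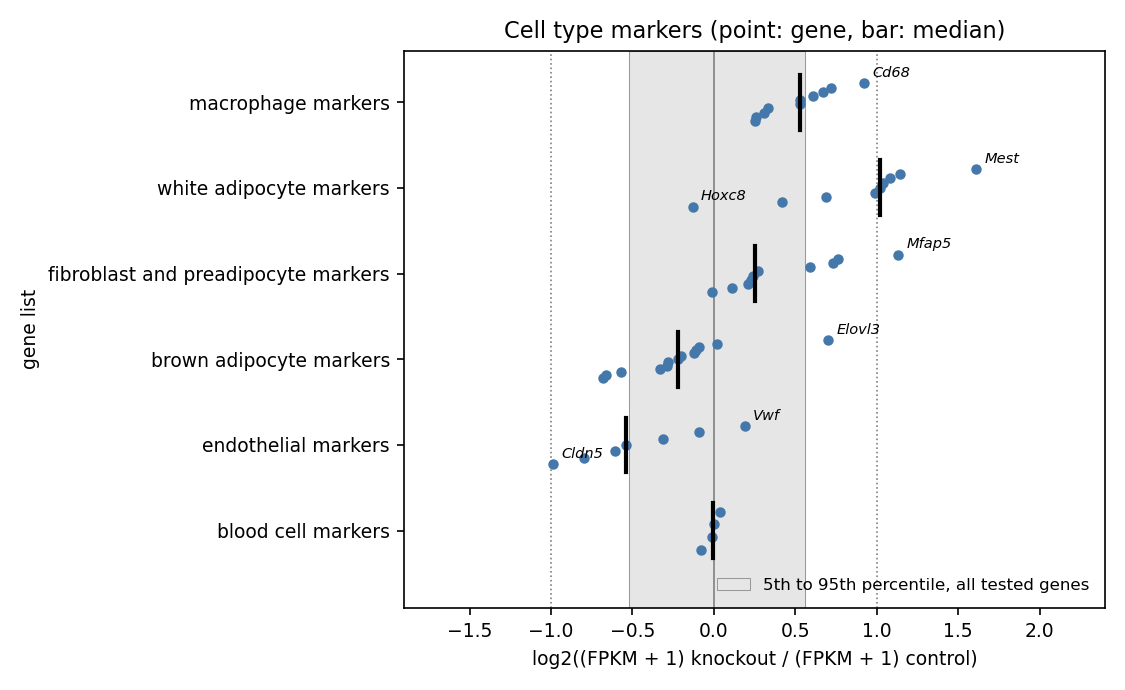
Log2 ratio of knockout to control with 1 FPKM added for each tested marker (points) of 6 cell types, with the median as a black bar, dotted lines at 1 and -1, and the 5th to 95th percentile range of all tested genes in grey. Macrophage markers have a median of 0.53 and endothelial markers of -0.54.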

How the data were processed

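Poly(A)-selected brown adipose RNA was sequenced after PCR amplification, per the labels' protocols, which do not mention strand. The authors deposited, per the file headers, an expected count, an FPKM value and a transcript length per Entrez gene. RSEM and the build mm9 come from the submitters' processing notes, with the aligner not given in the sources used here. In an expected count, as deposited, reads shared between genes are divided; it was rounded for intervals. Unlisted genes were taken as 0. Symbols for 16134 of 16174 genes came from RefSeq (GRCm38.p6), and window coordinates are of that build, not mm9. Ratios have exact conditional (Clopper-Pearson) intervals of the counts and levels exact Poisson intervals, for counting error only, since PCR copies are not independent molecules. With 0 counts, up to 3 are allowed, equal to 0.31 CPM (control) and 0.298 CPM (knockout). The naming rule took the 10 genes, Dnmt3b, Ucp1, H6pd, Hsd11b2, listed paralogs and up to 4 tested genes per list with the largest absolute log2 ratio. Others are named for a low or absent level or, as stated, after their values were seen. Members and lists were chosen with earlier results of these data known. The call rule was run on simulated counts with counting error alone. That run cannot show how the rule behaves with variation between mice, lanes or PCR copies. Python 3.11.15, scipy 1.17.1 and edgeR 4.0.16 (TMM factors alone) were used.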

Additional observations from a re-analysis of the deposited data

How the results depend on the processing

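No paired analysis was possible because each genotype had 1 library, and for the same reason no library could be left out. The count of the 10 genes called higher was 5 and became 3 with a pseudocount of 5, where Tsc22d3 (0.92) and Map3k6 (0.76) passed below the line. It was 6 at 1.5-fold, with Hsd11b1 added, and 5 under each of the other 10 alternatives. None of the 10 was called lower in any alternative, and each kept the sign of its log2 ratio. Of the other induced genes, 1 was called higher, which became 2 with a pseudocount of 0.1, CPM, TMM scaling or equal FPKM totals without the 20 most abundant genes, 0 with a pseudocount of 5 or a mean of at least 5 FPKM, and 6 at 1.5-fold, where 2 were lower. Over all genes the calls of 106 higher and 79 lower became 281 and 196 with a pseudocount of 0.1, 15 and 14 with 5, 42 and 27 with a mean of at least 5 FPKM, and 511 and 401 at 1.5-fold. The higher count alone was 179 with CPM and 189 with TMM. A pseudocount weighs on low values, a stricter filter tests fewer genes and a smaller fold calls more. With CPM and TMM the added 1 was in CPM and not in FPKM, so it weighed differently on low values. The log2 ratios moved by a median of -0.00 with CPM and 0.02 with TMM. The part of each in the higher count was not tested. Depth left no difference detectable at Nr3c2 or Dnmt3b, and 11 of the 22 repressed genes untested.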
